A study of Mus musculus with 3 samples.

Results

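RARβ peaks that lie close together on the mouse genome are described here. A group was a chain of RARβ peaks in which each summit, the position of highest tag pileup, lay at most 10000 bp from the next. The members were chosen by measured values, namely the summit positions of the deposited RARβ peak list, and all peaks of chains of 3 or more were kept. This gave 831 peaks in 232 groups, out of 8075 RARβ peaks in all. Their number and spacing follow from that choice and are descriptions. The remaining peaks were 1446 in pairs and 5798 without a neighbour within 10 kb, called single peaks below.

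The peaks come from chromatin immunoprecipitation with sequencing (ChIP-seq) of caudate putamen, a region of the dorsal striatum, from male wild-type mice on the strain background C57BL/6J x 129SvEms/j. One library was made with an antibody against RARβ (sc-552, Santa Cruz) and one with an antibody against H3K4me3 (ab8580, Abcam). A further library, made with an antibody against GFP (ab290, Abcam), was not analysed here. A common control library lies behind the fold enrichment and FDR of both lists, and the sources used here do not say whether it was the GFP library. The age of the mice and how many were pooled for a library are not given in the sources used here, and the tissue holds neurons and glia together. The RARβ library kept 2237580 tags after filtering and the H3K4me3 library 47461843, so RARβ peaks rest on far fewer tags. With 1 library per antibody, no value below has a replicate error and no p-value is given. Intervals are 95% intervals, Wilson for shares and exact Poisson for counts, and they cover counting error between positions of 1 library only. The grouping of the peaks was not checked in a second library.

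RARβ is a nuclear receptor that pairs with a retinoid X receptor on DNA and regulates transcription when retinoic acid binds to it. In the brain it is found most of all in the striatum, where it takes part in the development and function of the projection neurons. H3K4me3, histone H3 with 3 methyl groups on lysine 4, marks the starts of active and poised genes. Broad stretches of this mark are known from genes that define a cell's identity. Several receptor peaks near each other can belong to 1 broad marked stretch, to several neighbouring promoters, or to promoters and the distal elements beside them. The sections below go through these layouts in turn. Genes are not named, because the annotation in hand has another genome build (GRCm38) than the peaks (mm9), and for the same reason no sequence is printed. Positions are given in mm9.

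Most groups were small. Of the 232 groups, 157 had exactly 3 peaks (67.7%, interval 61.4 to 73.4), 46 had 4 and 13 had 5. Another 5 groups had 6 peaks, 7 had 7 and 4 had 8. The 75 groups of 4 or more together held 360 of the 831 peaks. From first to last summit the groups spanned a median of 9286 bp, with quartiles of 5468 and 12678 bp and a range of 1743 to 44892 bp. The number of groups follows the joining distance and the depth closely. With summits joined up to 5000 bp there were 123 groups, with 20000 bp there were 381, and among RARβ peaks with at least 10 tags there were 70.

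The joining distance cut through a smooth range of spacings. In the whole list, 76 neighbouring summits lay over 9000 and up to 10000 bp apart, and 64 lay over 10000 bp apart by up to 1000 bp more. The widest spacing inside a group of 3 or more was 9830 bp, on chromosome 7 with the later summit at 140014626. The 3 narrowest spacings that just failed to join a group of 3 or more were 10009, 10019 and 10032 bp, on chromosomes 16, 8 and 12. The peaks on either side of these 3 gaps had 22 and 8, 14 and 25, and 51 and 39 tags.

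A group of 7 peaks at chr11:98206406-98217969 lay whole in 1 H3K4me3 peak of 16856 bp with 6694 H3K4me3 tags. Along the chromosome its RARβ peaks had 45, 8, 32, 10, 14, 23 and 21 tags, and their spacing was between 672 and 3059 bp. The first peak was the strongest, with a fold enrichment over local background of 60.66 (45 tags, Poisson interval 32.8 to 60.2), and the 32 tag peak followed with 40.87. The other 5 had fold enrichments from 11.49 to 15.78. High and low peaks thus stood side by side within 1 marked stretch.

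A group of 8 at chr14:71017699-71031853 had 9, 11, 24, 38, 17, 14, 7 and 8 tags in order. Its middle 5 peaks lay in an H3K4me3 peak of 8944 bp and its first pair in another, while the last lay outside the mark. The highest peaks stood in the middle, with 24 and 38 tags, and the lowest at the ends. A group of 8 at chr3:17685564-17705782 was more even, with 8, 7, 7, 23, 7, 13, 14 and 15 tags. Of these, 7 shared an H3K4me3 peak of 16550 bp, the same number as in the group of 7 on chromosome 11.

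Other large groups were strung over several marked sites. At chr4:137203976-137238004, 8 peaks with 14, 29, 9, 10, 7, 9, 9 and 9 tags touched 5 H3K4me3 peaks. The second peak stood out with a fold enrichment of 77.38, against 11.49 to 26.82 for the rest. The group of 8 at chr11:77654087-77689675 had 16, 20, 28, 7, 30, 7, 8 and 8 tags, of which the 16, 20 and 30 tag peaks lay outside H3K4me3. Here 3 of the 4 strongest peaks were unmarked, and the marked ones included all the peaks under 10 tags.

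**Figure D1:**
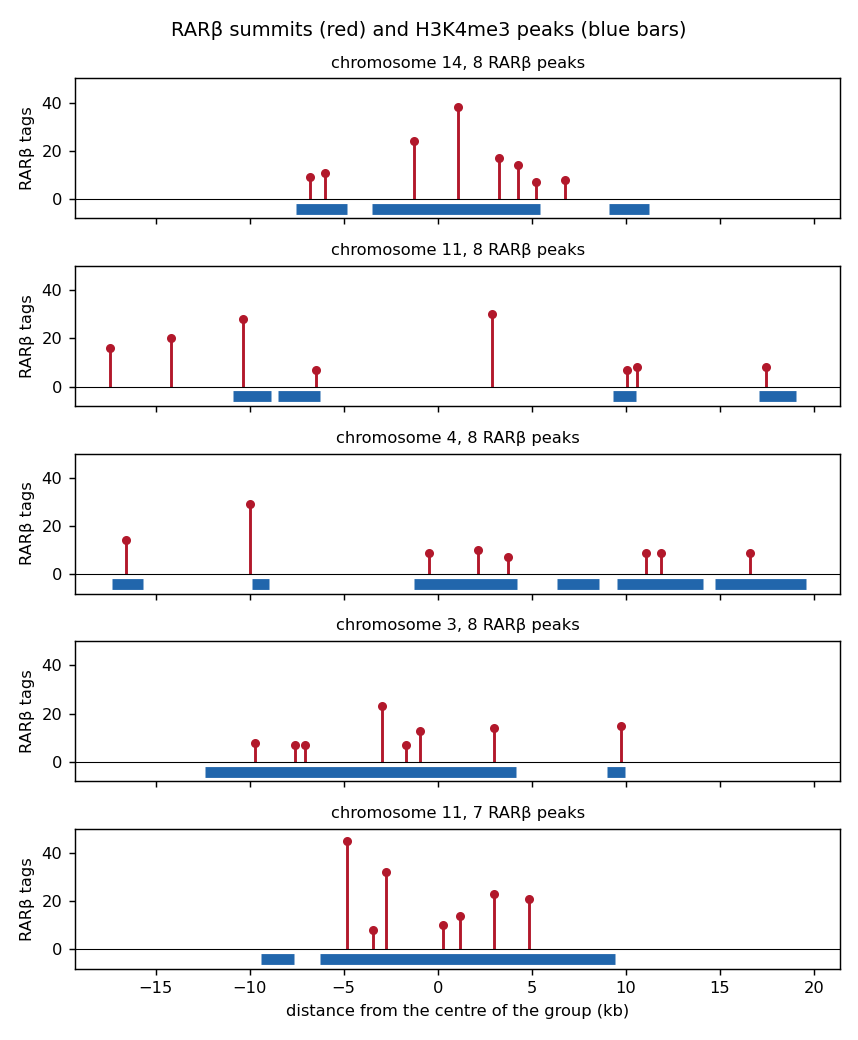
RARβ tags per peak (height of the red stems, y axis) against distance from the centre of the group in kb (x axis) for the 5 groups with the most peaks, where equal numbers were ordered by summed tags. Blue bars are H3K4me3 peaks; the group of 7 on chromosome 11 lies over 1 bar of 16856 bp, while the group on chromosome 4 is spread over 5 bars.

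Among the other groups of 6 or 7 peaks, the one with the most tags, 168, lay at chr9:44990235-45015948. Its 6 peaks had 23, 58, 19, 51, 7 and 10 tags, and those with 58, 51 and 10 tags lay outside H3K4me3. The 58 tag and 51 tag peaks had fold enrichments of 65.77 and 111.14, so the 2 strongest peaks of the group were both unmarked. At chr19:10528916-10544621, 7 peaks had 9, 7, 12, 38, 19, 15 and 33 tags. The last, with a fold enrichment of 65.77, was the one outside the mark. A group of 7 at chr7:52954965-52974222 had 28, 14, 8, 24, 39, 8 and 7 tags, all in H3K4me3 and 5 of them in a peak of 11793 bp. A group of 7 at chr2:70396078-70415208 was flat, with 8, 8, 10, 13, 10, 11 and 11 tags, also all in H3K4me3.

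The group that touched the most H3K4me3 peaks, 6, lay at chr9:44113480-44152259. Its 7 peaks had 11, 12, 10, 8, 19, 14 and 8 tags over 38164 bp, with at most 2 of them in any 1 marked peak. At chr11:98634609-98671346, 6 peaks with 28, 21, 9, 13, 10 and 11 tags touched 5 H3K4me3 peaks. At chr16:35206835-35221271, 6 peaks with 19, 8, 9, 10, 18 and 35 tags also touched 5, within 13261 bp. The last of these had a fold enrichment of 77.38. The remaining groups of 6 or 7 had 78 to 124 tags in all. They were the groups of 6 at chr10:79601522-79623725, with 78 tags and every peak marked, and at chr11:97848865-97870215, with 101 tags and 4 marked. The others were the groups of 7 at chr12:112901470-112926382, with 124 tags and 5 marked, and at chr14:67715976-67761597, with 88 tags and 3 marked. The last was also the longest of all, at 44892 bp, with a strongest peak of 29 tags that lay outside H3K4me3.

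Across all groups, 603 of the 831 peaks overlapped an H3K4me3 peak by at least 1 bp, a share of 72.6% (interval 69.4 to 75.5). The share over all RARβ peaks was 64.9%, over pairs 72.1% (69.7 to 74.3) and over single peaks 62.1% (60.8 to 63.3). The interval of the groups overlapped that of the pairs and lay above that of the single peaks. These intervals take each peak as independent, although peaks of 1 group share a region. The marked share also varied with tags, and grouped peaks had more tags. Among peaks with at least 10 tags the share was 74.0% in groups (70.0 to 77.7), 76.3% in pairs (73.3 to 79.1) and 70.1% among single peaks (68.4 to 71.8), so the difference between groups and single peaks was smaller and their intervals overlapped. Among peaks with at least 30 tags the marked ones were 40 of 56 in groups (interval 58.5% to 81.6%), 37 of 53 in pairs (56.5% to 80.5%) and 120 of 160 single peaks (interval 67.8% to 81.1%). With H3K4me3 peaks above an empirical FDR of 5% set aside, the share in groups was 47.4% and over all RARβ peaks 40.4%.

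By size of group, 67.9% of the 471 peaks in groups of 3 were marked, 73.4% of the 184 in groups of 4 and 83.1% of the 65 in groups of 5. The shares were 80.0% of 30, 85.7% of 49 and 87.5% of 32 peaks in groups of 6, 7 and 8. A long chain needs many peaks in a row, and no test was made of this order.

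The groups fell into 4 layouts with respect to the mark. In 46 groups (19.8%, interval 15.2 to 25.4) every peak lay in the same H3K4me3 peak. In 66 (28.4%, 23.0 to 34.6) every peak was marked, but in different H3K4me3 peaks. Another 94 (40.5%, 34.4 to 46.9) had peaks both in and outside the mark. The last 26 (11.2%, 7.76 to 15.9) touched no H3K4me3 peak. Counted otherwise, 105 groups touched 1 H3K4me3 peak, 70 touched 2, 21 touched 3, and 10 touched 4 or more. The split depends on the joining distance. The share in a single H3K4me3 peak was 36.6% with summits joined up to 5000 bp and 8.92% with 20000 bp. The share with no H3K4me3 peak was 38.8% when H3K4me3 peaks with an FDR above 5% were set aside.

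For pairs, both peaks lay in 1 H3K4me3 peak in 40.1% of 723 (interval 36.6 to 43.7) and neither was marked in 116 (interval 13.5% to 18.9%). A pair has fewer peaks to place, so these shares and those of the groups are not of the same kind.

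Groups whole in 1 H3K4me3 peak had a median summit span of 4789.5 bp, against 9181 bp for groups without the mark and 9286 bp over all groups. The width of the H3K4me3 peak limits the span of such a group. The groups whole in 1 H3K4me3 peak numbered 33 groups of 3, 9 of 4, 3 of 5 and the group of 7 on chromosome 11. The 46 groups lay in H3K4me3 peaks with a median width of 9982.5 bp (range 3806 to 78469) and spanned a median of 45.7% of that width. Among groups of 5, the one at chr2:115881347-115897675 had 9, 10, 17, 14 and 45 tags in an H3K4me3 peak of 26052 bp with 14027 H3K4me3 tags. The strongest of these lay at the far end of the group.

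A pair of groups of 4 in wide H3K4me3 peaks had tags concentrated in 1 peak. At chr15:103330432-103336699 the tags were 111, 18, 11 and 16, so 71.2% of them were in the first peak, the grouped peak with the most tags of all (Poisson interval 91.3 to 134). At chr6:99467237-99474182 they were 19, 10, 7 and 93, and the last peak held 72.1%. The 93 tag peak had 13.3 times the tags of the weakest, the largest ratio among the 232 groups. The second group lay in an H3K4me3 peak of 17387 bp. The first lay at the edge of one of 23517 bp that starts at 103331496, and the 111 tag peak overlapped that edge with its summit, at 103331226, outside. Both strongest peaks had an FDR above 5%.

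The 5 tightest groups by median spacing had 3 or 4 peaks each. At chr16:96706789-96709095, peaks of 7, 10 and 7 tags lay within 1743 bp, the shortest summit span of all groups. At chr11:77793848-77796204 the tags were 9, 14 and 11 within 1776 bp, and at chr8:75094597-75096883 they were 14, 9 and 13 within 1814 bp. A group of 4 at chr19:7314540-7320150 had a median spacing of 672 bp, the smallest in the list, with 7, 9, 8 and 13 tags and the last peak unmarked. At chr13:23608924-23618618 the first 3 of 4 peaks, with 9, 8 and 8 tags, lay in an H3K4me3 peak of 4407 bp and the last, with 8, in another. None of the peaks in these 5 groups had more than 14 tags.

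Spacing inside groups differed with the mark. Over the 599 neighbouring pairs of summits in groups the median was 3109 bp, with quartiles of 1571 and 6013.5 bp and a range of 386 to 9830 bp. The 252 neighbours in the same H3K4me3 peak had a median of 1636 bp (quartiles 1074.5 and 2673 bp). The 127 neighbours in different H3K4me3 peaks had a median of 5468 bp, and the 220 with at least 1 peak outside the mark 4281 bp. The room within an H3K4me3 peak limits the first of these medians. Of all neighbours in groups, 33.9% (interval 30.2 to 37.8) were at most 2000 bp apart, and in pairs 38.7% (35.2 to 42.3). The median spacing in pairs was 2803 bp. In 68 neighbours (11.4%) less than 200 bp lay between the peaks' edges, and the smallest gap was 1 bp, on chromosome 13 before the peak at 83860946 to 83861597. Such neighbours were counted as separate peaks and no alternative merged them. Whether they are separate sites was not tested.

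**Figure D2:**
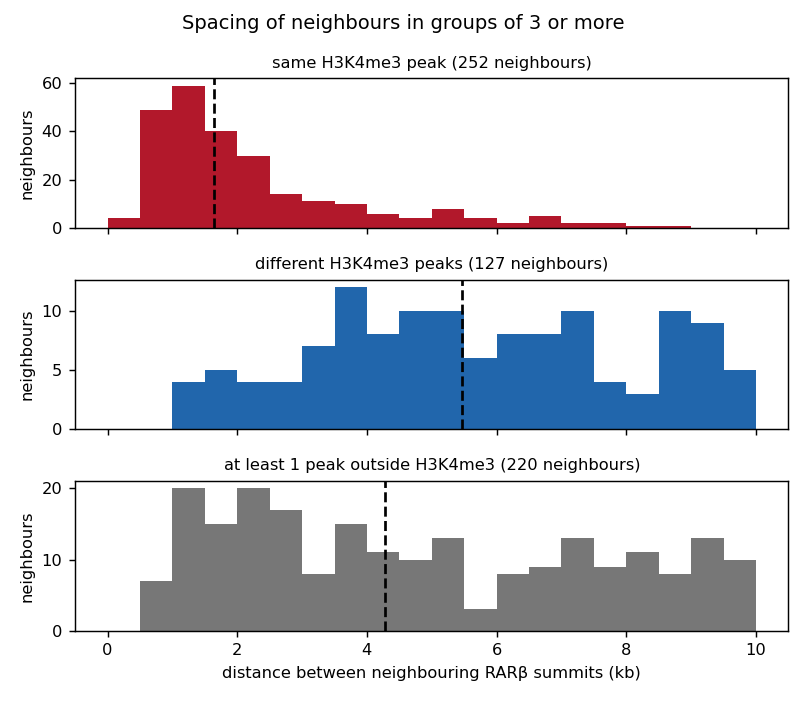
Number of neighbouring RARβ summits in groups of 3 or more (y axis) by the distance between them in kb (x axis, bins of equal width), for neighbours in the same H3K4me3 peak, in different ones, and with at least 1 peak outside; dashed lines are medians. Neighbours in the same H3K4me3 peak gather at short distances around the median of 1636 bp, while both other distributions spread over the whole range.

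Grouped peaks had slightly more tags than the other peaks. The median was 11 tags in groups (quartiles 8 and 17), 10 in pairs (8 and 15) and 9 among single peaks (8 and 13), against 10 for the whole list. An 11 tag peak has a Poisson interval of 5.49 to 19.7, so the counting error of 1 peak is wider than the difference between these medians. That is not the error of a median over many peaks. The interval of the grouped median itself was 10 to 11 tags. The share with at least 30 tags differed more. The highest count, though, was 1577 tags among single peaks, 882 in pairs and 111 in groups. Of the grouped peaks, 56 had at least 30 tags (6.74%, interval 5.23 to 8.65), against 3.33% of all peaks, 3.67% of pairs (2.81 to 4.76) and 2.76% of single peaks (2.37 to 3.21). Peaks with 7 tags, the fewest in the list, made up 18.2% of the grouped peaks and 22.9% of the single peaks. Tags come from the same peak calls as the positions, so these are descriptions.

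Fold enrichment, which the authors' peak caller gave for each peak, hardly differed. Its median was 19.99 in groups, 20.43 in pairs and 19.35 among single peaks, with upper quartiles of 27.08, 27.08 and 26.82. In width, grouped peaks had a median of 691 bp and single peaks 641 bp. Within groups, peaks in the mark had a median of 11 tags and a fold enrichment of 19.35, and peaks outside it 10 tags and 23.21. Single peaks ran the same way, with 10 tags and 19.35 in the mark and 9 tags and 21.07 outside. The lowest fold enrichment of a grouped peak was 6.57. No grouped peak was under 5, where 2 peaks of pairs and 3 single peaks lay. An FDR above 5% was given to 3 of 1446 peaks in pairs, 9 of 5798 single peaks and 17 of all 8075. Among the 831 grouped peaks it was given to 5, all of them with at least 51 tags. The highest fold enrichment of a grouped peak, 181.85, belonged to the peak at chr2:152147189-152148243, with 83 tags and 2950 bp from the nearest H3K4me3 peak. It was among these 5, with an FDR of 33.33%. This peak is named after its value was seen.

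The strongest peak of a group had a median of 2.41 times the tags of the weakest, with quartiles of 1.71 and 3.29, and in 77 groups (33.2%) it had at least 3 times as many. The Poisson intervals of 7 and 17 tags, whose ratio is near the median, overlap (2.81 to 14.4 and 9.90 to 27.2), and those of 7 and 93 tags do not. In groups of 3 the strongest peak held a median of 47.1% of the tags. The strongest of 3 counts exceeds an even share through counting error alone, so this is no measure of a difference. At least 1 peak of 30 tags or more was present in 49 groups (21.1%, interval 16.4 to 26.8). In 115 groups (49.6%) at least 1 peak had only 7 tags, so with slightly fewer tags those groups would be shorter. Every peak had 10 tags or more in 38 groups. In the 145 groups of 3 with a single strongest peak, this was the middle one in 40 (27.6%, interval 21.0 to 35.4), and the interval includes the 33.3% of an even split.

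The H3K4me3 list was not used to choose the groups, and its peaks differed widely with the number of RARβ peaks they held. Of the 35971 H3K4me3 peaks, 75 held 3 or more RARβ peaks. Of these 75, 51 held 3, 15 held 4, 6 held 5, 1 held 6 and 2 held 7. Their median width was 9676 bp (quartiles 6456.5 and 15234), against 5495.5 bp for the 360 H3K4me3 peaks with 2 RARβ peaks, 2691 bp for the 4269 with 1 and 1570 bp for the 31267 with none. A wide peak has more room, and the median of RARβ peaks per kb was 0.350 with 3 or more, 0.364 with 2 and 0.372 with 1. The mark was also denser in those with more RARβ peaks, and width and density were not tested apart. H3K4me3 tags per kb had a median of 435 in those with 3 or more, 388 with 2, 325 with 1 and 112 with none. This order does not hold for every H3K4me3 peak at a group. The 353 H3K4me3 peaks that overlapped at least 1 grouped RARβ peak had medians of 3152 bp and 218 tags per kb, so they were wider but less dense than those with 1 RARβ peak. Of these 353, 51.6% were at or under an FDR of 5% (interval 46.4 to 56.7), against 57.7% of those with 1 RARβ peak (56.2 to 59.2) and 90.7% of those with 3 or more (82.0 to 95.4). The share was 31.2% of those with none and 35.0% of all 35971 H3K4me3 peaks (34.5 to 35.4), so most of the H3K4me3 list had an FDR above 5%.

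**Figure D3:**
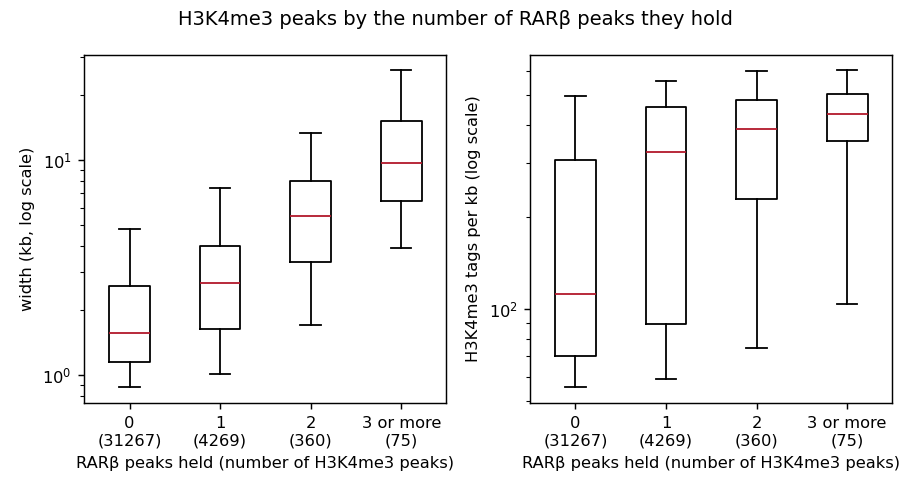
Width in kb (left) and H3K4me3 tags per kb (right) of H3K4me3 peaks, both on log axes, by the number of RARβ peaks they hold (x axis, with the number of H3K4me3 peaks). Boxes show quartiles, red lines medians and whiskers the 5th and 95th percentiles; the median width goes from 1570 bp with none to 9676 bp with 3 or more.

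How often an H3K4me3 peak held 3 or more varied with its width. This was so for 1 of 21036 peaks up to 2 kb wide, 4 of 10898 over 2 and up to 4 kb, and 22 of 3564 over 4 and up to 8 kb (0.617%, interval 0.408 to 0.933). It was so for 31 of 437 over 8 and up to 16 kb (7.09%, 5.04 to 9.89) and 17 of the 36 widest (47.2%, 32.0 to 63.0). In the classes above 4 kb the mark was denser where 3 or more RARβ peaks lay. From 8 to 16 kb the median was 461 H3K4me3 tags per kb with 3 or more RARβ peaks and 389 with fewer, and above 16 kb it was 381 and 308. From 2 to 4 kb the order was opposite, 287 against 374, with 4 peaks on the first side. Whether more H3K4me3 signal also brought tags into the RARβ library was not tested.

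Grouped summits lay farther from the H3K4me3 summit than single ones. Over 603 grouped peaks in the mark the median distance was 778 bp (quartiles 309 and 2078.5), against 304 bp (119 and 571) for 3599 single peaks. Wider H3K4me3 peaks leave room for larger distances. In the 46 groups whole in 1 H3K4me3 peak, the nearest RARβ summit lay a median of 487.5 bp from the H3K4me3 summit. RARβ summits stood on both sides of it in 32 of these groups (69.6%, interval 55.2 to 80.9). Among the 45 groups with a single strongest peak, that peak lay a median of 1457 bp from the H3K4me3 summit (interval of the median 862 to 2537) and the other peaks 2297 bp (1818 to 2670), so the intervals overlapped. The strongest RARβ peak was the one nearest to the H3K4me3 summit in 16 of 45 (35.6%, interval 23.2 to 50.2).

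In groups that were part in and part out of the mark, the unmarked peaks lay close to it. There were 146 such peaks, at a median of 2.40 kb from the nearest H3K4me3 peak, with quartiles of 1.02 and 5.70 kb. Single peaks outside the mark lay a median of 17.9 kb away. The joining distance keeps an unmarked peak of such a group near its marked neighbours, so the short distance follows in part from the rule.

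The 26 groups with no H3K4me3 peak held 82 RARβ peaks, 22 groups of 3 and 4 groups of 4. Their peaks had a median of 11 tags and a fold enrichment of 23.21, close to the 10 tags and 23.21 of all grouped peaks outside the mark. The strongest peak had at least 30 tags in 7 of the 26 groups (26.9%, interval 13.7 to 46.1) and in 42 of the 206 others (20.4%, 15.5 to 26.4). The nearest H3K4me3 peak lay a median of 10.8 kb from these groups (quartiles 1.75 and 23.6). It was within 5 kb for 10 of them and more than 50 kb away for 3.

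The unmarked group with the most tags, 109, lay at chr16:35083732-35100168. Its 4 peaks had 12, 40, 7 and 50 tags, the 40 and 50 tag peaks with fold enrichments of 69.64 and 65.13, and the nearest H3K4me3 peak was 9.53 kb off. At chr3:52640543-52647507, peaks of 8, 56 and 34 tags had fold enrichments of 30.95, 72.75 and 88.99, at 3.71 kb from the mark. At chr9:112069396-112082385 the tags were 11, 35 and 37, and an H3K4me3 peak ended or began only 0.272 kb away. A group at chr17:8851421-8861650 had 37, 19 and 10 tags at 10.6 kb from the mark, and a group at chr12:27048141-27062883 had 7, 33, 13 and 12 tags at 1.48 kb. These 5 were chosen for their tags, so their high peaks follow from that choice.

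The unmarked groups farthest from H3K4me3 had no peak above 22 tags. The farthest lay 252 kb away at chr10:54049829-54061340, with 7, 7 and 8 tags. Next were those at chr9:49003130-49014719, 133 kb away with 17, 7 and 7 tags, and at chr14:29216982-29226951, 78.3 kb away with 11, 9 and 18. A group at chr6:98098902-98107368 lay 42.5 kb away with 12, 14 and 22 tags, and one at chr15:87232481-87242723 lay 30.7 kb away with 10, 11 and 9. A 7 tag peak has a Poisson interval of 2.81 to 14.4, so several of these peaks are at the limit of detection.

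The number of groups was set against the number expected when summits fall at random within H3K4me3 peaks. For this, only the 5131 RARβ summits inside H3K4me3 peaks were chained, which gave 125 groups of 3 or more with 451 summits. At 63.0 summits per Mb over the 81.4 Mb of H3K4me3 peaks, 79.7 groups with 255 summits were expected. The number found was 1.57 times the expected one (interval 1.31 to 1.87 from the Poisson error of the count). The ratio grew with size. There were 83 groups of exactly 3 against 66.8 expected, with an interval of 66.1 to 103 that holds the expected number. For 4 or more there were 42 against 12.9, for 5 or more 17 against 2.43, and for 6 or more 10 against 0.531. Pairs numbered 457 against 492, within the interval of 416 to 501.

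The expectation rose when H3K4me3 peaks were divided into 10 groups by width, each with its own rate of summits. With these rates 101 groups of 3 or more were expected, a ratio of 1.23 (interval 1.03 to 1.47). Groups of exactly 3 were then 83 against 82.4, groups of 4 or more 42 against 18.9, and groups of 6 or more 10 against 1.02. Pairs were 457 against 524 expected with these rates, which is above the interval of 416 to 501. With all 8075 summits and a second uniform rate outside H3K4me3 peaks, 94.5 groups were expected against the 232 found, a ratio of 2.45. The expected numbers allow summits at any distance, while called summits in groups were at least 386 bp apart. Neighbours with less than 200 bp between their edges, 68 of 599 over all groups, counted as separate summits in the found numbers. No alternative merged them. They are a description of 1 library, and no p-value was computed from them.

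**Figure D4:**
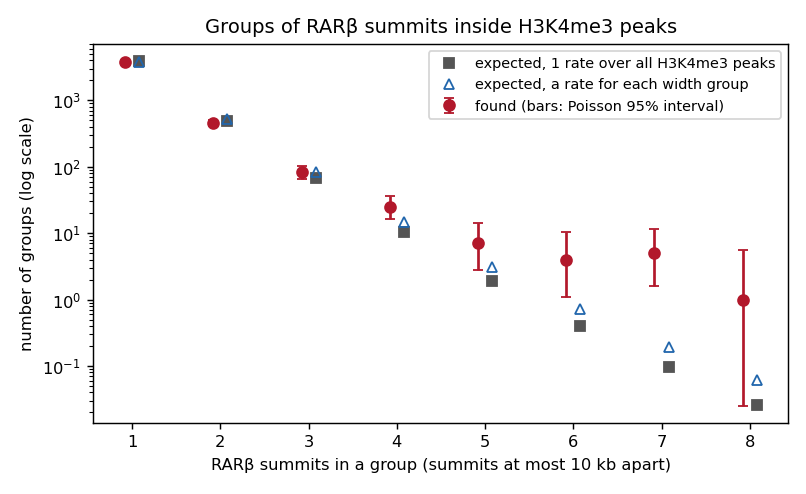
Number of groups (y axis, log scale) by the number of RARβ summits in a group (x axis) for summits inside H3K4me3 peaks: found (circles, Poisson 95% interval), expected with 1 rate (squares) and with a rate for each width group (triangles). Found and expected numbers lie closer for 1 to 3 summits than for more. From 4 summits on the found numbers lie above both expectations, but the found interval holds the width-group expectation at 5 summits and both at 8.

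Groups also lay near other groups. Between neighbouring groups of a chromosome the median gap was 3720 kb, but 66 of 213 gaps (31.0%) were at most 1 Mb and 23 were at most 100 kb. When groups within 1 Mb of the next were joined, 11 stretches had 3 or more groups, 46 groups in all. No expected number of stretches was computed, and their relation to the density of RARβ and H3K4me3 peaks was not tested.

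The stretch with the most groups, 8, ran over 2.42 Mb at chr6:98098902-100514636. It held 49 RARβ peaks and 63 H3K4me3 peaks, and 29 of the RARβ peaks were in the groups. Of these 29 peaks, 15 were marked (51.7%). In order, the groups had 48, 28, 43, 55, 64, 129, 46 and 35 tags. Those with 48, 28 and 46 tags had no H3K4me3 peak, while the group of 129 tags is the one with the 93 tag peak given above. A stretch of 6 groups at chr12:107319520-109249239 held 49 RARβ peaks in 1.93 Mb, 23 of them grouped and 14 of those marked. Its groups had 28, 45, 82, 91, 34 and 71 tags, of which the one with 45 had no H3K4me3 peak.

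Other stretches were shorter. At chr16:35083732-35240832, 4 groups with 18 peaks lay in 0.157 Mb, with 109, 52, 99 and 42 tags in order. The first of them is the unmarked group with the most tags, so unmarked and marked groups lay next to each other. At chr17:8822108-9004582, 4 groups with 14 peaks lay in 0.182 Mb, and 6 of those peaks were marked. At chr9:43892527-45015948, 4 groups with 59, 82, 38 and 168 tags lay in 1.12 Mb with 15 of 19 peaks marked.

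**Figure D5:**
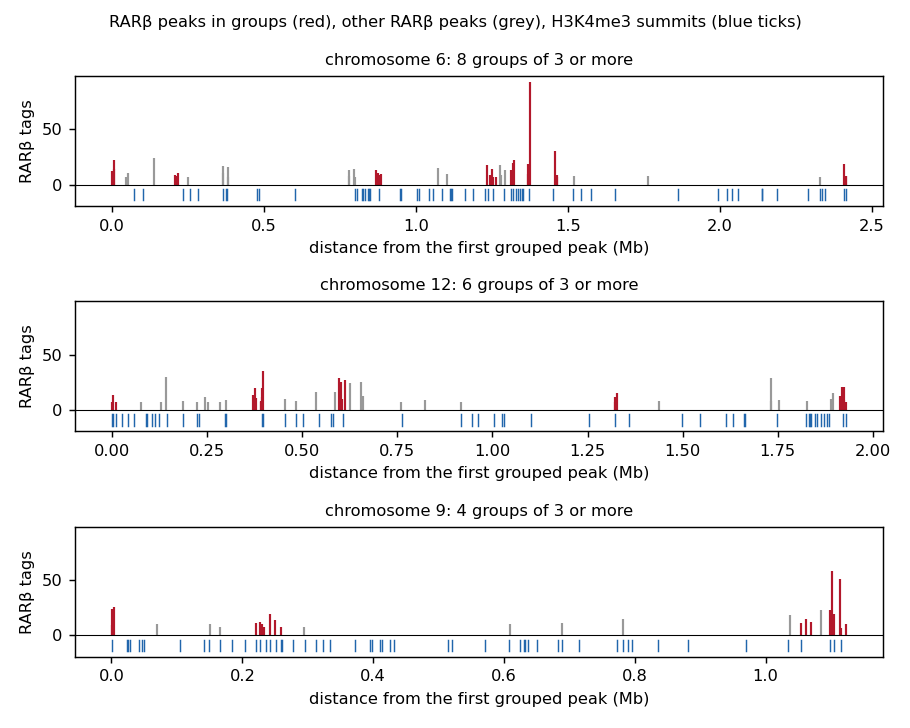
RARβ tags per peak (y axis) against distance from the first grouped peak in Mb (x axis) for the 3 stretches with the most groups and peaks. Red lines are peaks in groups of 3 or more, grey lines other RARβ peaks and blue ticks H3K4me3 summits; on chromosome 6 the 93 tag peak stands above all others.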

How the data were processed

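ChIP-seq of mouse caudate putamen was used, with 1 library per antibody. The submitters' processing notes name CASAVA 1.8.2, Bowtie, MACS 1.4.2 and mm9. Per the file headers, MACS 1.4.2 was run separately for each antibody at a p cutoff of 1e-05 against the same control library of 3703580 filtered tags, with 1 tag kept per position. This removed 55.2% of the RARβ tags. Tag counts, fold enrichment (a ratio to local background), FDR in percent and a score whose column name is damaged were deposited by the authors. The score was not used.

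Summits were taken as start plus summit offset minus 1 and chained up to 10000 bp. Peaks overlapped from 1 bp. Expected numbers of groups come from a Poisson process with 1 rate over H3K4me3 peaks, integrated on a 50 bp grid without random draws. The formula was tested on simulated positions. Medians have order-statistic binomial intervals. The members, lists and comparisons were chosen with earlier results of these data known. Named groups are those of 6 or more peaks, and the first 5 by summed tags, by smallest median spacing, by number of H3K4me3 peaks, by members in 1 H3K4me3 peak, and, without H3K4me3, by summed tags and by distance. Stretches of groups, width classes and strong-peak shares were added after the values were seen. Alternatives changed the joining distance, joined by peak edges, filtered either list by FDR or RARβ tags, left out the tallest and widest peaks or the sex chromosomes, asked for a stricter overlap, joined H3K4me3 peaks, or varied the rates of the expectation. Planned tests by gene and motif were not run, since no mm9 reference was used here. Python 3.11.15, numpy 2.4.6, pandas 2.3.3, scipy 1.17.1 and matplotlib 3.10.9 were used.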

Additional observations from a re-analysis of the deposited data

How the results depend on the processing

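Of 71 alternative values, 2 of them added after seeing the data, 49 stayed within 1.5 times the count or within the 95% interval of the reported value, and 22 did not. Some of the 49 could hardly move. X and Y held no groups, so leaving them out could change only the ratio of found to expected groups. The FDR filter on RARβ peaks took out only 17 of 8075. With summits joined up to 5000 bp there were 123 groups and 424 peaks, 80.4% of them marked, 36.6% of groups in a single H3K4me3 peak, 7.32% with none, and a median spacing of 1910 bp. Joined up to 20000 bp the values were 381 groups, 1464 peaks, 69.0%, 8.92% in a single H3K4me3 peak and 5529 bp. Among RARβ peaks with at least 10 tags there were 70 groups and 244 peaks with a median of 15 tags, and 2.29 times the expected number of groups. Leaving out H3K4me3 peaks above an FDR of 5% gave 47.4% of grouped peaks marked and 38.8% of groups with none. The number of groups was then 1.30 times the expected one (interval 1.03 to 1.61). Joining H3K4me3 peaks over gaps of at most 1000 bp put 25.9% of groups in a single one. The ratio of found to expected groups was 1.23 with a rate for each width group, 2.45 with all summits and a second rate outside H3K4me3 peaks, and 3.26 for groups of 4 or more, an added alternative. It was above 1 in all 12 alternatives run for it. With a rate for each of 10 groups by H3K4me3 tags per bp it was 1.35. No alternative combined rates by width and by tags per bp. The tag minimum and the joining distance change how many peaks can be chained. The low depth of the RARβ library limits every number here, since sites under 7 tags were not called. No paired analysis was possible because each antibody has 1 library.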

Other observations

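Groups of 3 or more were spread unevenly over the chromosomes. Chromosome 11 had 25 groups, with 98 of its 593 RARβ peaks in them (16.5%, Wilson 95% interval 13.8 to 19.7), and chromosome 12 had 21 groups, with 75 of 455 peaks (16.5%, 13.4 to 20.2). Chromosome 1 was lowest among the autosomes, with 22 of 450 peaks (4.89%, 3.25 to 7.29). On X no group was found among 52 peaks, which allows a share of up to 6.88% by the Wilson interval. These Wilson intervals take each peak as independent, although grouped peaks come 3 or more at a time, so they are too narrow. For X, 1.21 groups were expected inside H3K4me3 peaks with 1 rate over the genome and 0.0347 with the chromosome's own rate. The absence of groups there therefore says little. Inside H3K4me3 peaks, chromosome 11 had 16 groups against 7.17 expected with 1 rate over the genome and 8.70 with the chromosome's own rate. Chromosome 12 had 11 against 3.50 and 5.61, and chromosome 6 had 10 against 4.07 and 3.79. Others were near or below expectation, such as chromosome 1 with 3 against 3.98 and 2.76, chromosome 9 with 4 against 4.08 and 4.69, chromosome 2 with 8 against 6.18 and 7.93, and chromosome 7 with 6 against 5.38 and 5.88. With a rate for each chromosome, 83.2 groups were expected in all, against the 125 found. Chromosomes were compared after their values were seen, and no test was made.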
